A study of Homo sapiens with 6 samples.

Results

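The hypoxia-inducible factor (HIF) pathway was examined in A375 cells, a human melanoma line, through 34 genes, namely the HIF subunits, the enzymes that sense oxygen and turn HIF over, and hypoxia target genes outside glycolysis. The genes were chosen by name, with earlier results of these data known. Each was matched to an Ensembl ID through its GENCODE symbol, and all 34 were found among the 58302 IDs counted. Poly(A) RNA had been sequenced from 3 libraries of cells stably carrying an empty vector and 3 libraries of a line with stable overexpression of HMGB2, a chromatin protein that bends DNA. The overexpression line was made by lentiviral transduction and drug selection, how the empty vector line was made is not given in the sources used here, each library came from its own cell pellet, and the study's reporting form calls the replicates technical. The p-values below therefore measure the spread between pellets of a line and not between independent transductions, and no hypoxic samples belonged to the comparison. In bulk RNA, fewer cells expressing a gene and less RNA per cell cannot be told apart.

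HIF is a transcription factor made of an oxygen-regulated alpha subunit and the constant partner ARNT. When oxygen is plentiful, prolyl hydroxylases of the EGLN family mark the alpha subunit, VHL brings it to the ubiquitin ligase that leads to its destruction, and HIF1AN blocks its contact with coactivators. When oxygen is scarce, the alpha subunit persists and binds hypoxia response elements beside genes for pH control, blood vessel growth, mitophagy and collagen processing. Since most of this control acts on HIF protein, the mRNA of HIF1A and the mRNA of its targets can move apart.

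Reads assigned to genes numbered between 45925053 and 56755212 per library, and members with low counts are pointed out below. HMGB2 itself had 7250, 7729 and 7562 normalized counts (counts divided by the size factor of the library) in the 3 empty vector libraries and 15095, 16848 and 14609 in the 3 overexpression libraries, each in the order of their replicate numbers, as are all values below (log2 fold change 1.05, SE 0.10, DESeq2 adjusted p = 4.40e-22). Its count joins vector and endogenous transcripts. Empty vector replicate 3 stood apart from the other empty vector libraries, at 2.70 on the first principal component against -39.1 and -34.7, while the overexpression libraries lay between 15.4 and 37.2. Results are given with and without it below. Of the melanocyte lineage markers, S100B and MITF made up most of the summed level, which was 4982 to 5242 normalized counts with the empty vector and 5446 to 5805 with overexpression, MLANA lay between 3.38 and 10.8, and TYR and DCT were at or near 0. SOX10 was at 0 in all 6 libraries, PMEL held 3.37% and S100A1 1.82% of the reads in their stranded columns (which count the strands separately), so overlapping genes left these markers nearly uncounted and their levels are not known from these values. The leukocyte marker PTPRC and the keratinocyte marker KRT1 were at 0 in all 6 libraries.

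HIF binds DNA at a short core, written ACGTG in its A form or GCGTG in its G form, and 26 of the 34 members had an entry in the RefSeq promoter table (build GRCh38.p14, 250 bases before to 50 bases after the annotated start). Both forms were searched on both strands. For members and tested genes only the first entry of a symbol was used, while the share over all RefSeq promoters counts every entry. For some members, among them P4HA2, EGLN3 and RORA, the window lay inside the annotated gene and not at its outermost start. The palindrome CACGTG holds ACGTG on each strand and was counted as 1 site. The stretches below belong to the 7 members that rose with HMGB2 overexpression and held a core, with ANKRD37, which held 2 sites and was not called, for contrast. A gene is called here at an adjusted p under 0.05 over all genes. Each is printed in the direction of the gene, upstream of the start only, and the capitals mark the cores (CACGT and CACGC are ACGTG and GCGTG read on the opposite strand). The lines give EPAS1 at chr2:46297260-46297324 (plus strand), CA9 at chr9:35673880-35673927 (plus), ANGPTL4 at chr19:8363905-8363955 (plus), BNIP3 at chr10:131981993-131982096 (minus), FAM162A at chr3:122384060-122384180 (plus), P4HA1 at chr10:73096918-73096982 (minus), BHLHE40 at chr3:4979187-4979322 (plus) and ANKRD37 at chr4:185396649-185396732 (plus).
EPAS1: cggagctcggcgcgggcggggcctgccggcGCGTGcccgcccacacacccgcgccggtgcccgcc
CA9: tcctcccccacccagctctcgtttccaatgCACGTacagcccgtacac
ANGPTL4: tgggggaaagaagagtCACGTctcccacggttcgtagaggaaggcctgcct
BNIP3: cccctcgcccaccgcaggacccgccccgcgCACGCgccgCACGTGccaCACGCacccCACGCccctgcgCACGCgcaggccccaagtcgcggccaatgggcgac
FAM162A: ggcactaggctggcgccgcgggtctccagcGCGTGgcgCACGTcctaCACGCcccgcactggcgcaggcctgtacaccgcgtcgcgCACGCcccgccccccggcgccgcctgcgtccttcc
P4HA1: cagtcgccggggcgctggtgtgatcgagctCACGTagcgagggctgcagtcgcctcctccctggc
BHLHE40: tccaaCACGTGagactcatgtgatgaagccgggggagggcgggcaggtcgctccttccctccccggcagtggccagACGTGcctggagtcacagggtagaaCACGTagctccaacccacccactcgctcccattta
ANKRD37: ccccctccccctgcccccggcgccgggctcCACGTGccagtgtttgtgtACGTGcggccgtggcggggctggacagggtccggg

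A core of either form stood in 19 of the 26 member promoters (73.1%), against 17012 of 35116 RefSeq promoters of the same length (48.4%) and 61.5% of the promoters of 12766 genes that received an adjusted p. The A form alone stood in 13 member promoters (50%), 21.4% of all promoters and 25.9% of those of tested genes, and CACGTG in 5 member promoters (19.2%), 7.26% and 9.67%. Base composition moved with these shares, since the median GC content was 68.0% in the member promoters, 58.7% in all promoters and 65.0% in those of tested genes, and its part in the shares was not tested. Most members were chosen as hypoxia targets, so a higher share of HIF cores may come with that choice. The shares describe the list and are not a result of these libraries. Among the 9 members that rose and had an entry, 7 held a core and 6 held the A form, and among the 17 that were not called 12 held a core and 7 held the A form. TMEM45A and P4HA2 rose and held no core in this window. A match is a run of letters and not a measured binding site, and no match says only that these letters are not in this window. No entry was found for VEGFA, NDUFA4L2, VHL, HILPDA, STC1, BNIP3L, LOXL2 and NDRG1.

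**Figure D1:**
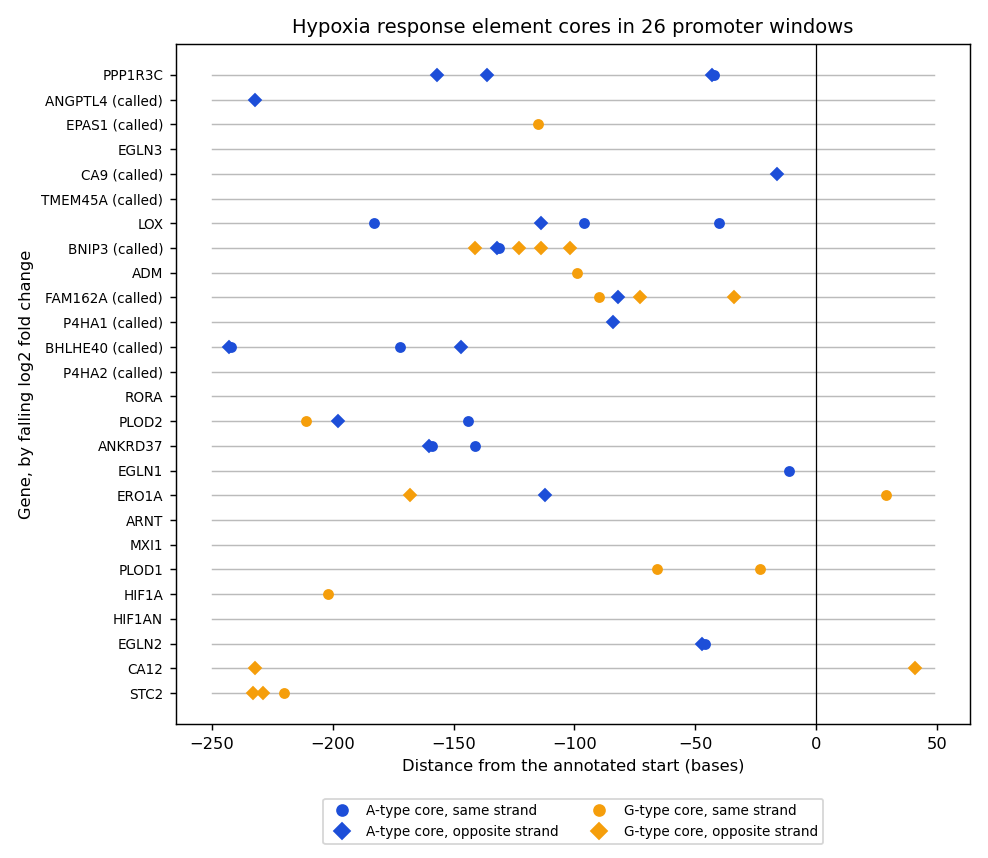
Position of each hypoxia response element core, in bases from the annotated RefSeq start, in the promoter windows of the 26 members with an entry, ordered by falling log2 fold change. Blue marks are the A form and orange marks the G form, circles lie on the strand of the gene and diamonds on the opposite strand, and "called" marks an adjusted p under 0.05. CA9 has its core 16 bases before the start and P4HA1 84 bases before it, and several members that were not called, such as LOX and PPP1R3C, hold 3 or more sites.

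HMGB2 overexpression was compared with the empty vector to ask how the mRNA of this pathway differs between melanoma cells with raised HMGB2 and control cells. Among the 26 target genes, which make up most of the members, 10 rose and 2 fell. In the smaller groups, 1 of the 3 HIF subunits and none of the 5 oxygen-sensing genes was called. Of the 34 members, 11 rose and 2 fell at a DESeq2 adjusted p under 0.05 over all genes. Across all 18836 genes with an adjusted p, 930 (4.94%) were called, 432 (2.29%) of them higher and 498 (2.64%) lower. The risers were EPAS1, CA9, ANGPTL4, STC1, BNIP3, FAM162A, P4HA1, P4HA2, BHLHE40, NDRG1 and TMEM45A, and VEGFA and NDUFA4L2 fell. The median log2 fold change was 0.38 over the members and 0.0027 over all genes tested, with 22 members above 0 and 12 below it. The groups did not overlap for 18 members, 15 of them higher with overexpression. Of all genes tested, 4116 (21.9%) showed no overlap, and 2093 (11.1%) did so with overexpression higher.

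**Figure D2:**
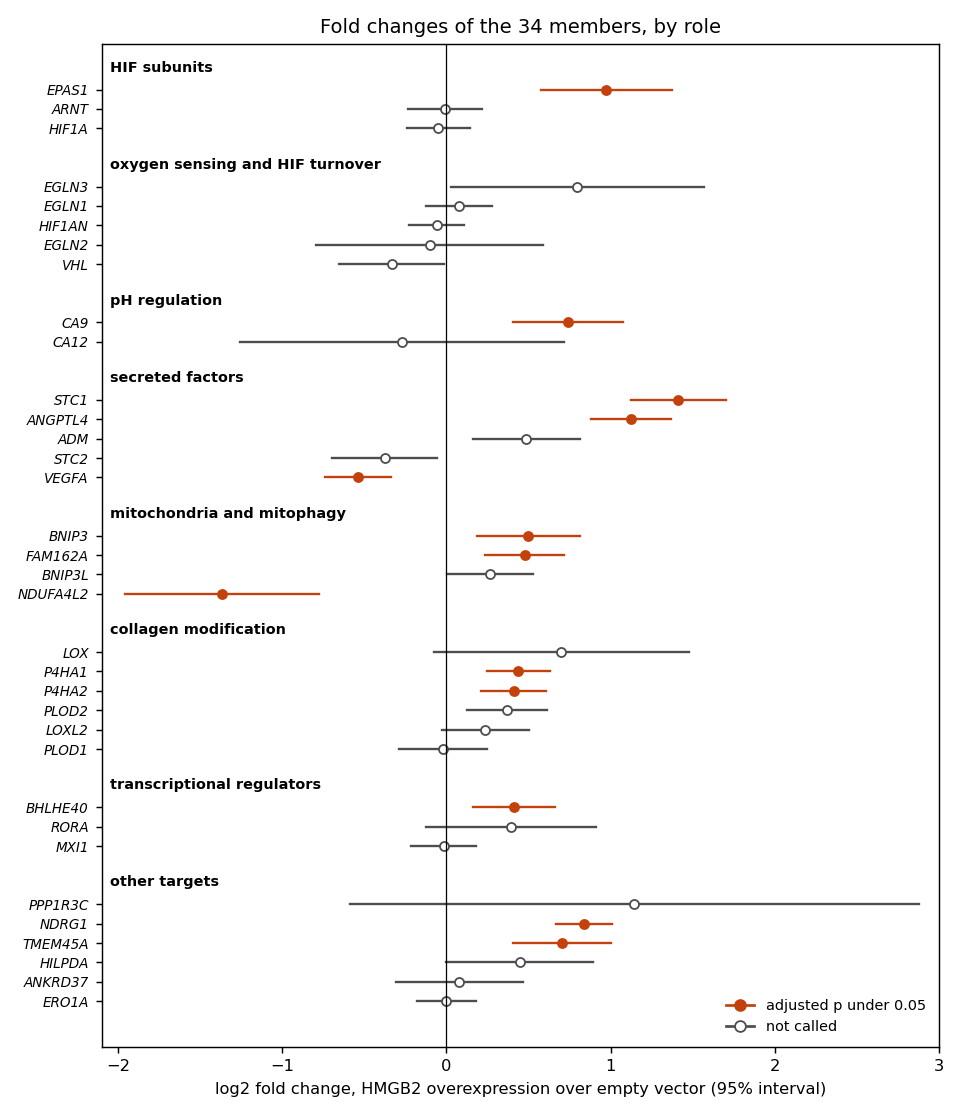
Log2 fold change of HMGB2 overexpression over empty vector for the 34 members, grouped by role, with the 95% interval of the DESeq2 fit as a line. Filled orange points have an adjusted p under 0.05 and open points do not. The HIF subunits HIF1A and ARNT and all 5 oxygen-sensing genes are open, while STC1 at 1.41 and NDUFA4L2 at -1.37 lie farthest out among the called members.

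Among the 3 HIF subunits only EPAS1 was called, and HIF1A and ARNT stayed close to their empty vector levels. HIF1A (chromosome 14), the alpha subunit best known for driving glycolytic genes, had 8994, 10407 and 9826 normalized counts with the empty vector and 9482, 9312 and 9437 with overexpression. The groups overlapped, and the 95% interval of the log2 fold change ran from -0.24 to 0.14 around -0.05 (DESeq2 adjusted p = 0.903). EPAS1 (ENSG00000116016, chromosome 2, 46293667 to 46386697, plus strand) encodes the other widely studied alpha subunit. It was counted at 201, 220 and 230 with the empty vector and at 550, 376 and 350 with overexpression. All 3 overexpression libraries lay above all empty vector libraries, and replicate 1 was the highest. The rise was 1.96-fold (95% interval 1.49 to 2.59, log2 fold change 0.97, SE 0.20, DESeq2 adjusted p = 0.000121), and it was 0.74 on the log2 scale without overexpression replicate 1 (adjusted p = 0.0167). ARNT, the shared partner of both alpha subunits, ranged from 2138 to 2591 with the empty vector and from 2246 to 2472 with overexpression (log2 fold change -0.01, interval -0.23 to 0.22, DESeq2 adjusted p = 0.991).

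None of the 5 oxygen-sensing and turnover genes was called at adjusted p under 0.05 in DESeq2 with all libraries or in edgeR, and in DESeq2 the unadjusted p was under 0.05 for EGLN3 (0.0428) and VHL (0.0417). EGLN1, the main prolyl hydroxylase acting on HIF in normal oxygen, was counted between 4317 and 4873 with the empty vector and between 4540 and 4948 with overexpression (log2 fold change 0.08, interval -0.12 to 0.28, DESeq2 adjusted p = 0.842). EGLN3 is the family member most strongly induced by hypoxia in many cells, and its level here was low. Its normalized counts were 30.3, 24.8 and 30.05 with the empty vector and 70.9, 43.3 and 32.6 with overexpression. The groups did not overlap, but overexpression replicate 3 lay just above the empty vector range, and the log2 fold change of 0.80 (SE 0.39) had an adjusted p of 0.323 in DESeq2. EGLN2 was counted at 71.7, 76.2 and 33.3 against 64.5, 56.1 and 48.4 (log2 fold change -0.10, interval -0.80 to 0.59, DESeq2 adjusted p = 0.953). These low counts leave out reads in the 30.6% of its exon bases that other annotated genes, among them the readthrough gene RAB4B-EGLN2, share.

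VHL, the part of the ubiquitin ligase that recognises hydroxylated HIF, was counted at 913, 1032 and 737 with the empty vector and at 710, 797 and 621 with overexpression. The groups overlapped because empty vector replicate 3 fell among the overexpression libraries. The fitted log2 difference was -0.33 (SE 0.16, adjusted p = 0.319 in DESeq2), and without empty vector replicate 3 it was -0.45 (adjusted p = 0.00816). HIF1AN, the asparagine hydroxylase that keeps coactivators off HIF, was counted between 4940 and 5058 with the empty vector and between 4753 and 4872 with overexpression. Its groups did not overlap, yet the difference was small (log2 fold change -0.06, interval -0.23 to 0.11, DESeq2 adjusted p = 0.857). NDUFB8 lies opposite, and the column used held 42.1% of the reads that the stranded columns give HIF1AN. With those columns summed the log2 fold change was 0.010, but since the kit does not mark strand, such a sum also takes in reads of the gene opposite, here and below.

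Of the carbonic anhydrases, cell-surface enzymes that turn CO2 into bicarbonate and so buffer pH, CA9 rose and CA12 was near the limit of measurement. CA9 (ENSG00000107159, chromosome 9, 35673928 to 35681159, plus strand) is among the most widely used markers of HIF activity. It was counted at 1070, 834 and 713 with the empty vector and at 1468, 1623 and 1279 with overexpression. The lowest overexpression library stood above the highest empty vector library, and the rise was 1.67-fold (95% interval 1.32 to 2.11, log2 fold change 0.74, SE 0.17, DESeq2 adjusted p = 0.000861). ARHGEF39 lies on the opposite strand over 35.7% of the CA9 exon bases, and the column used held 53.2% of the reads that the stranded columns give CA9. With those columns summed, which mixes in reads of ARHGEF39, the log2 fold change was 0.73 (adjusted p = 0.000129). CA12 had 10.7 to 32.3 normalized counts with the empty vector and 18.2 to 21.4 with overexpression (log2 fold change -0.27, interval -1.26 to 0.71, DESeq2 adjusted p = 0.897).

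The 5 secreted factors split, with 2 higher, 1 lower and 2 not called. STC1 (ENSG00000159167, chromosome 8, 23841929 to 23854806, minus strand), the glycoprotein hormone stanniocalcin, had the largest log2 fold change among the called members. Its normalized counts were 277, 271 and 237 with the empty vector and 697, 770 and 622 with overexpression, and the groups stood well apart. The rise was 2.66-fold (95% interval 2.18 to 3.25, log2 fold change 1.41, SE 0.15, DESeq2 adjusted p = 2.06e-18). ANGPTL4 (ENSG00000167772, chromosome 19, 8363289 to 8374370, plus strand), a secreted inhibitor of lipoprotein lipase, was counted at 365, 412 and 408 with the empty vector and at 859, 896 and 827 with overexpression. Within each group the libraries lay close together, and the rise was 2.18-fold (95% interval 1.84 to 2.58, log2 fold change 1.12, SE 0.12, DESeq2 adjusted p = 9.78e-17). STC2, the paralogue of STC1, was counted at 1191, 1299 and 933 against 931, 953 and 753. Its groups overlapped, the fitted difference was -0.38 on the log2 scale (SE 0.16, adjusted p = 0.210 in DESeq2), and it was -0.50 (adjusted p = 0.00166) without empty vector replicate 3.

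VEGFA (ENSG00000112715, chromosome 6, 43770184 to 43786487, plus strand), the growth factor for blood vessels that is the textbook HIF target, fell. It was counted at 6554, 6232 and 5875 with the empty vector and at 4372, 4479 and 3984 with overexpression. Every overexpression library lay below every empty vector library, at 0.688 of the empty vector level (95% interval 0.599 to 0.790, log2 fold change -0.54, SE 0.10, DESeq2 adjusted p = 1.48e-05). ADM, the vasodilator peptide adrenomedullin, had 470, 354 and 472 normalized counts with the empty vector and 546, 586 and 683 with overexpression. The groups did not overlap, and the log2 fold change of 0.49 (interval 0.16 to 0.81) had an adjusted p of 0.0631 in DESeq2, which became 0.00652 without empty vector replicate 3.

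Of the 4 mitochondrial genes, 2 rose and 1 fell. BNIP3 (ENSG00000176171, chromosome 10, 131967684 to 131981967, minus strand), a receptor on the outer membrane that directs mitochondria to autophagy, was counted at 7985, 7954 and 11131 with the empty vector and at 12320, 11601 and 14327 with overexpression. Empty vector replicate 3 lay far above the other empty vector libraries and only just below the overexpression range. The rise was 0.50 on the log2 scale (SE 0.16, adjusted p = 0.0385 in DESeq2). It was 0.68 (adjusted p = 1.51e-09) without empty vector replicate 3, and the call was lost without any other single library, at adjusted p between 0.0698 and 0.364, as well as in edgeR (0.131) and without the independent filter of DESeq2 (0.0668). BNIP3L, the related mitophagy receptor, ran from 3010 to 3943 with the empty vector and from 3901 to 4456 with overexpression (log2 fold change 0.26, interval 0.0013 to 0.53, DESeq2 adjusted p = 0.346). Its only empty vector library inside the overexpression range was replicate 3, and without it the log2 fold change was 0.38 (adjusted p = 0.00164).

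FAM162A (ENSG00000114023, chromosome 3, 122384161 to 122412334, plus strand), a mitochondrial protein linked to cell death in hypoxia, had 3054, 2776 and 3535 normalized counts with the empty vector and 4265, 4158 and 4606 with overexpression. The groups did not overlap, and the rise was 0.48 on the log2 scale (SE 0.12, adjusted p = 0.00455 in DESeq2). FAM162A was no longer called without empty vector replicates 1 or 2 or overexpression replicates 1 or 3, at adjusted p between 0.0825 and 0.112, nor in edgeR (0.0593). NDUFA4L2 (ENSG00000185633, chromosome 12, 57234903 to 57240715, minus strand) resembles a subunit of the respiratory chain and is known to lower respiratory activity in hypoxia. It was counted at 498, 553 and 258 with the empty vector and at 217, 179 and 110 with overexpression. In both groups replicate 3 was the lowest, and empty vector replicate 3 stood only slightly above the highest overexpression library. The level fell to 0.388 of that with the empty vector (95% interval 0.257 to 0.584, log2 fold change -1.37, SE 0.30, DESeq2 adjusted p = 0.000375). NDUFA4L2 was not called by edgeR (0.0594 after adjustment). Leaving empty vector replicate 3 out of DESeq2 gave a log2 fold change of -1.63 (adjusted p = 2.01e-11).

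**Figure D3:**
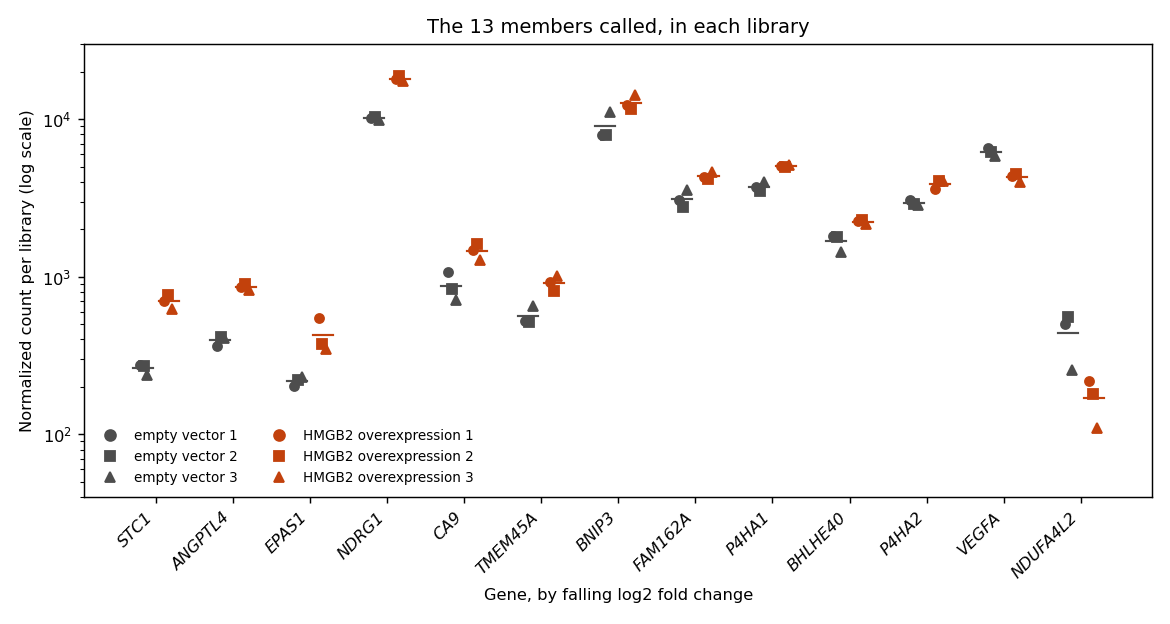
Normalized counts per library, on a log scale, of the 13 members called, ordered by falling log2 fold change, with empty vector libraries in grey and HMGB2 overexpression libraries in orange. The marker shape gives the replicate number and the short line the group mean. The groups do not overlap for any of the 13, with wide gaps for STC1, ANGPTL4 and NDRG1 and narrow ones for BNIP3 and NDUFA4L2, where empty vector replicate 3 lies nearest to the overexpression libraries.

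Of the 6 genes that modify collagen, the prolyl hydroxylase subunits P4HA1 and P4HA2 rose, and the lysyl hydroxylases and lysyl oxidases were not called. P4HA1 (ENSG00000122884, chromosome 10, 73007217 to 73096974, minus strand) was counted at 3688, 3504 and 3990 with the empty vector and at 5028, 4976 and 5141 with overexpression. The groups stood apart, and the rise was 1.35-fold (95% interval 1.19 to 1.55, log2 fold change 0.44, SE 0.10, DESeq2 adjusted p = 0.000473). P4HA2 (ENSG00000072682, chromosome 5, 132190147 to 132295315, minus strand) was counted at 3063, 2898 and 2859 against 3612, 4038 and 4064, also without overlap (1.33-fold, interval 1.16 to 1.52, log2 fold change 0.41, SE 0.10, DESeq2 adjusted p = 0.00265). Leaving out 1 library at a time kept the log2 fold change at 0.39 to 0.49 for P4HA1 and at 0.38 to 0.46 for P4HA2. Both calls were lost in some of these fits. Without any 1 library other than empty vector replicate 3, calls over all genes also fell, to between 1.97% and 2.58% against 4.94% with all libraries. P4HA1 was not called without empty vector replicates 1 or 2 or overexpression replicate 1 (adjusted p 0.0596, 0.0603 and 0.0704), and P4HA2 was not called without empty vector replicates 1 or 2 or overexpression replicates 2 or 3 (adjusted p 0.0545, 0.0914, 0.151 and 0.120).

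PLOD2, the lysyl hydroxylase that acts on the ends of collagen chains, was counted at 4475, 4716 and 5645 with the empty vector and at 6275, 6055 and 6828 with overexpression. The groups did not overlap, and the log2 fold change of 0.37 (interval 0.13 to 0.61) had an adjusted p of 0.0570 in DESeq2, which was 0.0489 with TMM factors and 7.69e-06 without empty vector replicate 3. PLOD1, its paralogue, ranged from 16265 to 20388 and from 15910 to 20572 (log2 fold change -0.02, interval -0.29 to 0.25, DESeq2 adjusted p = 0.981). LOX, which starts the crosslinking of collagen, was counted at 70.7, 58.5 and 184 with the empty vector and at 147, 128 and 232 with overexpression. In both groups replicate 3 was the highest, and empty vector replicate 3 lay inside the overexpression range. The fitted difference was 0.70 on the log2 scale (interval -0.08 to 1.48, adjusted p = 0.435 in DESeq2), and it was 1.39 (adjusted p = 7.72e-05) without empty vector replicate 3. LOXL2, a relative of LOX, ranged from 5580 to 7064 with the empty vector and from 6927 to 8312 with overexpression (log2 fold change 0.24, interval -0.03 to 0.50, DESeq2 adjusted p = 0.438), and it was not called without empty vector replicate 3 either (0.13, adjusted p = 0.379).

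Of the 3 transcriptional regulators, BHLHE40 rose. BHLHE40 (ENSG00000134107, chromosome 3, 4979437 to 4985323, plus strand), a repressor tied to the circadian clock and to hypoxia, was counted at 1824, 1785 and 1426 with the empty vector and at 2263, 2280 and 2156 with overexpression. The groups did not overlap, and the rise was 0.41 on the log2 scale (SE 0.13, adjusted p = 0.0305 in DESeq2). Without empty vector replicate 3 it was 0.31 (adjusted p = 0.0112), and the call was lost without any other single library, at adjusted p between 0.0834 and 0.293, as well as in edgeR (0.0954) and without the independent filter of DESeq2 (0.0531). RORA, a nuclear receptor of the clock, was counted at 58.6, 57.6 and 56.9 against 88.1, 68.9 and 69.8. Its groups did not overlap at these low counts, the log2 fold change of 0.39 (interval -0.12 to 0.91) had a DESeq2 adjusted p of 0.557, and it was 0.05 with the stranded columns summed, of which the column used held 63.0%. MXI1, an antagonist of MYC, averaged 2682 ± 147 normalized counts in control libraries and 2651 ± 119 in overexpression libraries (SD, n = 3 each; log2 fold change -0.02, interval -0.22 to 0.18, DESeq2 adjusted p = 0.977).

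Of the 6 remaining targets, NDRG1 and TMEM45A rose. NDRG1 (ENSG00000104419, chromosome 8, 133237175 to 133302022, minus strand), a stress-induced protein long used as a hypoxia marker, was counted at 10140, 10334 and 9855 with the empty vector and at 18083, 18665 and 17377 with overexpression. The spread within each group was small beside the gap, and the rise was 1.78-fold (95% interval 1.59 to 2.01, log2 fold change 0.84, SE 0.09, DESeq2 adjusted p = 1.02e-18). TMEM45A (ENSG00000181458, chromosome 3, 100492619 to 100577444, plus strand), a transmembrane protein, was counted at 525, 516 and 648 against 927, 806 and 1017. Its groups did not overlap (1.63-fold, interval 1.33 to 2.00, log2 fold change 0.70, SE 0.15, DESeq2 adjusted p = 0.000237).

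HILPDA, a protein of lipid droplets, was counted at 466, 425 and 764 with the empty vector and at 737, 625 and 891 with overexpression. Empty vector replicate 3 lay inside the overexpression range, and the log2 fold change of 0.45 (interval -0.0020 to 0.89, DESeq2 adjusted p = 0.354) became 0.75 (adjusted p = 5.44e-05) without it. ERO1A, the oxidase that drives disulfide formation in the endoplasmic reticulum, averaged 2864 ± 86.4 normalized counts in control libraries and 2863 ± 61.7 in overexpression libraries (SD, n = 3 each), with a 95% interval of -0.18 to 0.18 on the log2 scale (DESeq2 adjusted p = 0.999). ANKRD37, an ankyrin repeat protein, ranged from 349 to 561 and from 424 to 521 (log2 fold change 0.08, interval -0.31 to 0.46, DESeq2 adjusted p = 0.931). UFSP2 lies opposite over 40.3% of its exon bases, and the column used held 41.6% of the reads that the stranded columns give ANKRD37. PPP1R3C, which directs a phosphatase to glycogen, was near the floor at 2.02, 7.09 and 6.44 against 23.6, 4.92 and 5.63, so overexpression replicate 1 alone set its log2 fold change of 1.14 (interval -0.59 to 2.88, DESeq2 adjusted p = 0.647).

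Levels were compared between members as normalized counts per kilobase of merged exons. With the empty vector they ran from 3466 for PLOD1 to 2.04 for PPP1R3C. BNIP3 at 2228 and HIF1A at 1891 followed PLOD1, and the ranges of BNIP3 (1964 to 2748) and HIF1A (1746 to 2020) overlapped, so their order was not settled by the spread. P4HA1 at 1205 and LOXL2 at 1097 came next, again with overlapping ranges, and NDRG1 was at 842, EGLN1 at 841 and BNIP3L at 820. Bases shared with other genes count toward the length but their reads are left out. EGLN1, which shares 55.8% of its exon bases, may therefore stand too low in this order, as may ANKRD37, CA9 and EGLN2. The same holds, among others, for HIF1AN and RORA, where the column used held 42.1% and 63.0% of the reads in their stranded columns. VHL shares 23.5% of its exon bases with a gene on the opposite strand, but the column used held 100% of its stranded reads. On this scale HIF1A lay far above EPAS1, at 1891 against 29.7 with the empty vector and 1827 against 58.3 with overexpression. The lowest means on this scale with the empty vector, all under 10 per kilobase, were those of EGLN2, EGLN3, CA12, RORA and PPP1R3C. The empty vector libraries of EGLN2 ran from 5.06 to 11.6. How far reads lost to shared bases set its place was not tested.

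**Figure D4:**
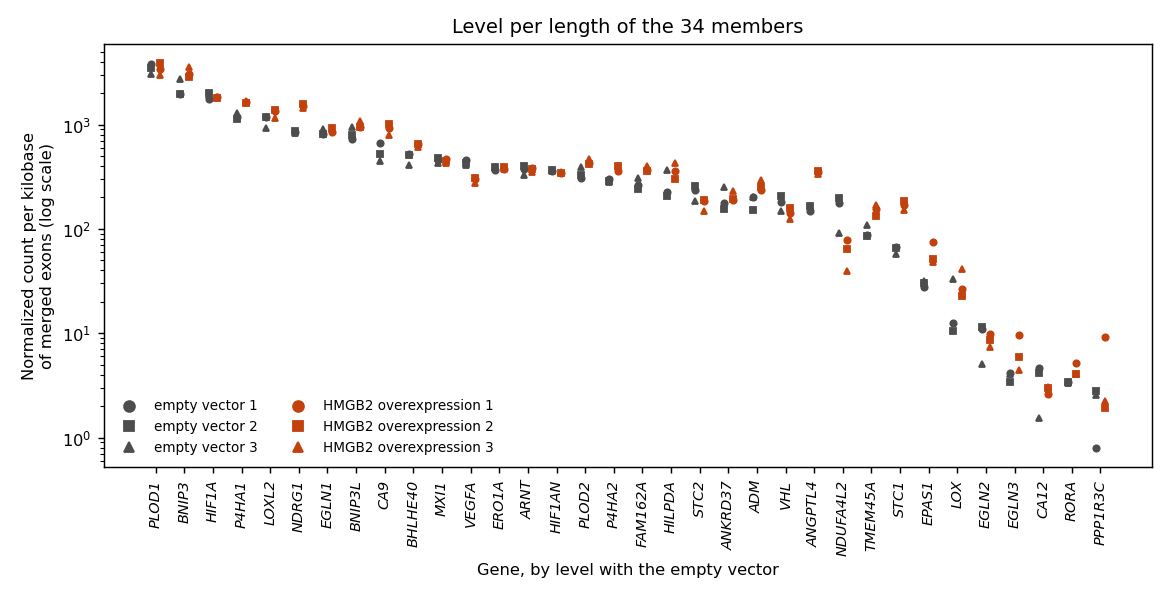
Level of each member per library, in normalized counts per kilobase of merged exons on a log scale, ordered by the mean with the empty vector. Grey points are empty vector libraries and orange points HMGB2 overexpression libraries, with the marker shape giving the replicate number. HIF1A is among the most abundant members and EPAS1 among the less abundant, and the points of CA12, RORA, EGLN3 and PPP1R3C lie under 10.

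Without empty vector replicate 3, 20 members were called, 16 higher and 4 lower, against 17.8% of all genes tested. With a term for the third replicates of both groups 21 were called against 17.3%, and with replicates 1 and 2 alone 21 were called against 17.4%. Both of the last fits gave 17 higher and 4 lower, and the added genes were ADM, BNIP3L, HILPDA, LOX, LOXL2 and PLOD2 (higher) and STC2 and VHL (lower). The background rose with the members in each of these fits. Empty vector replicate 3 lay away from replicates 1 and 2 in the direction of the overexpression libraries for 22 of the 34 members (64.7%), for 62.7% of all genes tested, for 7 of the 13 called members (53.8%) and for 53.2% of all called genes. With edgeR's quasi-likelihood test 9 members were called against 2.81% of all genes tested, and BHLHE40 (adjusted p = 0.0954), BNIP3 (0.131), FAM162A (0.0593) and NDUFA4L2 (0.0594) were not. EPAS1, CA9, ANGPTL4, STC1, NDRG1, TMEM45A and VEGFA were called in DESeq2 with all libraries and in each of the 14 alternatives.

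**Figure D5:**
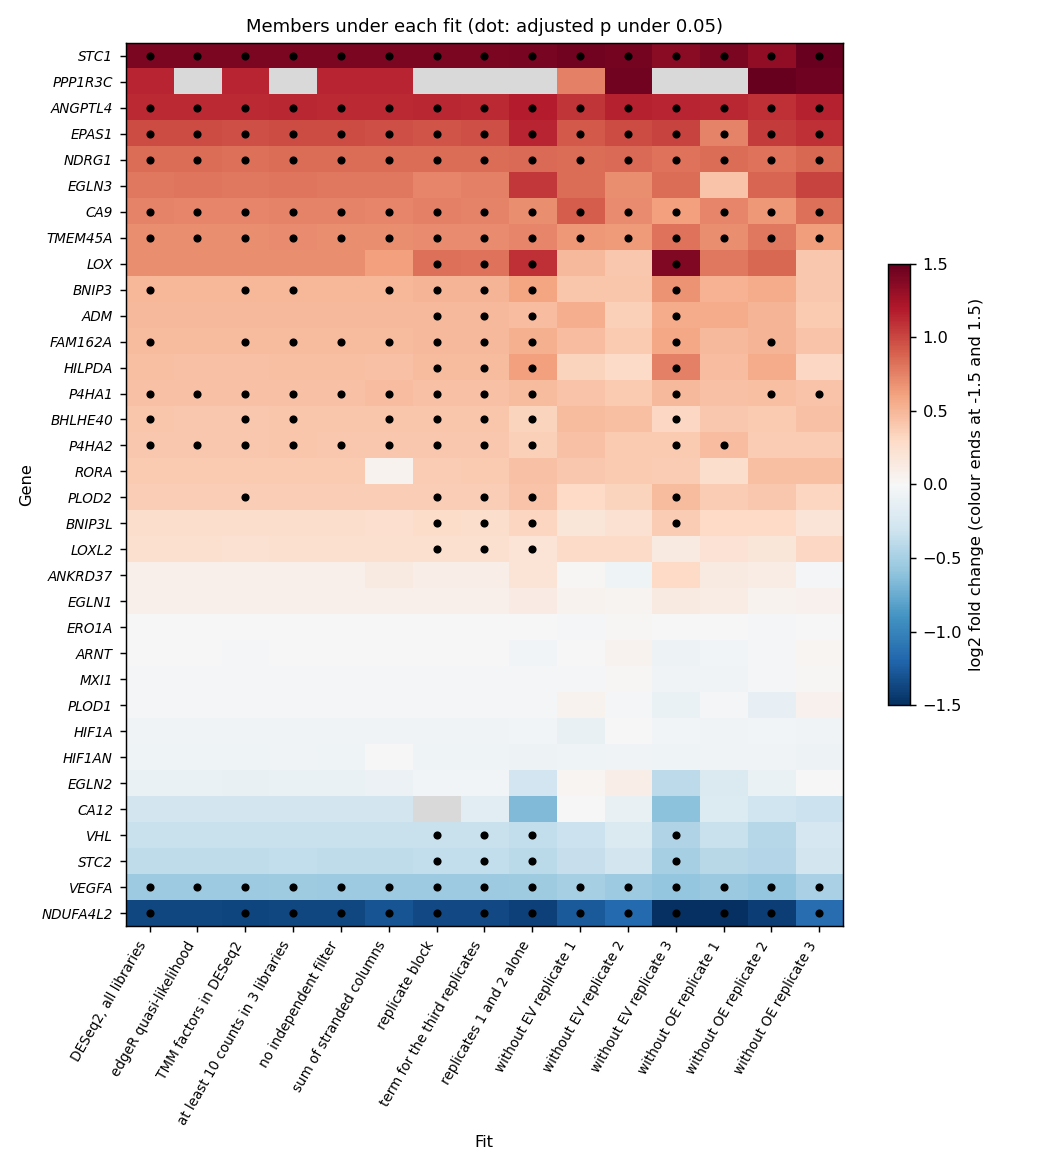
Log2 fold change of each member (rows) in the DESeq2 fit of all libraries and in the 14 alternatives (columns), with red above 0 and blue below it, colours ending at -1.5 and 1.5, and grey where no adjusted p was given. A dot marks an adjusted p under 0.05, EV stands for empty vector and OE for HMGB2 overexpression. The rows of STC1, ANGPTL4, EPAS1, NDRG1, CA9, TMEM45A and VEGFA hold a dot in every column, while LOX, HILPDA and STC2 hold dots only in the replicate block, with the term for the third replicates, with replicates 1 and 2 alone and without empty vector replicate 3.

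Other genes of the pathway were read from the same fit. Of 18 further components of HIF regulation, such as cofactors and ligase subunits, 17 received an adjusted p and 2 rose, with a median log2 fold change of -0.0049. These were CITED2, a protein that competes with HIF for its coactivators (0.44, SE 0.11, DESeq2 adjusted p = 0.00182), and HSP90AA1, a chaperone that steadies the alpha subunit (0.45, SE 0.10, adjusted p = 0.000567). ARNT2, a paralogue of ARNT, was counted at 12427, 12015 and 12472 with the empty vector and at 10658, 10608 and 9252 with overexpression (log2 fold change -0.27, DESeq2 adjusted p = 0.0996).

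Of 34 further hypoxia targets, 31 received an adjusted p, 5 rose and 2 fell, with a median log2 fold change of 0.07. The risers were the transferrin receptor TFRC (0.81), the matrix protein TGFBI (0.81), the cyclin CCNG2 (0.57), C4orf3 (0.56) and the sterol regulator INSIG2 (0.49), at DESeq2 adjusted p between 3.29e-12 and 0.0285. The growth factor PDGFB fell by 0.70 and the transcription factor MAFF by 0.40 on the log2 scale (DESeq2 adjusted p = 0.000327 and 0.0135). Of 22 genes of glycolysis and glucose transport, PFKFB4 (0.37, adjusted p = 0.00102) and ALDOC (0.36, adjusted p = 0.0171) rose in DESeq2, and the median log2 fold change was 0.13. The 26 target genes among the members gave 10 higher and 2 lower with a median of 0.41, and whether this differs from the other lists was not tested.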

How the data were processed

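Poly(A) RNA of A375 cells was sequenced from 3 empty vector and 3 HMGB2 overexpression libraries, made with a kit that does not mark strand. Per the submitters' processing notes, the authors used bcl2fastq 2.20, FastQC, Trimmomatic and STAR on build hg38. The aligner's version and the annotation release were not given in the sources used here. The files deposited hold whole read counts for each gene with no normalization, and a read that maps to several places or falls in several genes is counted for none. The column for either strand was used, and its 4 summary lines were left out. Reads in places shared by genes made up 10.7% to 11.4% of all reads. Multimapped reads made up 2.58% to 10.6%, with the highest share in overexpression replicate 3. Where genes on opposite strands overlap, this column leaves the shared reads out, while the sum of the stranded columns gives them to both genes.

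Of 58302 IDs, 57532 were matched to GENCODE 44 symbols, and unmatched IDs held 0.0575% of counts. Counts were fitted across all genes with DESeq2 1.42.0 in R 4.3.3 (Wald test, group alone, default settings, after the study's methods), and genes under 0.05 after Benjamini-Hochberg adjustment over all genes were called. Fold changes are not shrunken, normalized counts are divided by size factors, and 95% intervals come from the standard error. The script was tested on simulated data. The genes named are the 34 members, HMGB2, and genes of the other lists that were called, while ARNT2, MLANA, TYR, DCT, S100B, MITF, SOX10, PMEL, S100A1, COL1A1, PTPRC and KRT1 were named after their values were seen. The members and lists were chosen with earlier results of these data known. Alternatives were edgeR 4.0.16, TMM factors, a minimum of 10 counts in 3 libraries, no independent filter, summed stranded columns, a replicate block, a term for the third replicates, replicates 1 and 2 alone, and leaving out each library. Promoter sequences came from RefSeq.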

Additional observations from a re-analysis of the deposited data

How the results depend on the processing

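Low counts limited CA12, EGLN3, EGLN2, RORA and PPP1R3C, whose intervals spanned large changes. Reads shared with neighbouring genes limited CA9, HIF1AN and ANKRD37, and may have limited EGLN1 and EGLN2. For EGLN2, a low level and reads lost to shared bases cannot be told apart here. The sign changed under an alternative only for members close to 0. ERO1A was at 0.0018 with the minimum of 10 counts, 0.011 with the stranded columns summed and 0.0095 with replicates 1 and 2 alone, and HIF1AN was at 0.010 with the stranded columns summed. Leaving out 1 library at a time gave log2 fold changes between -0.025 and 0.019 for ERO1A, -0.079 and 0.055 for ARNT, -0.39 and 0.099 for EGLN2, -0.12 and 0.067 for PLOD1, -0.054 and 0.022 for MXI1 and -0.063 and 0.30 for ANKRD37, none of them called.

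With edgeR's quasi-likelihood test 470 genes were called, with 4 of the other hypoxia targets and 1 glycolysis gene. With the term for the third replicates 21 members and 2733 genes were called, with 6 other HIF pathway components, 14 other targets and 12 glycolysis genes. With replicates 1 and 2 alone the counts were 21 members, 2621 genes, 8 components, 13 other targets and 12 glycolysis genes. Leaving out 1 library gave 8 to 20 members, 363 to 2854 genes, 0 to 7 components, 3 to 13 other targets and 0 to 9 glycolysis genes, the highest of each without empty vector replicate 3. Without empty vector replicate 1, 8 members and 363 genes were called, and without empty vector replicate 2, 8 members and 455 genes. The components fell to 0 without overexpression replicate 2, and the glycolysis genes to 0 without any 1 library other than empty vector replicate 3, against 2 of each with all libraries. The cause of these differences was not tested.

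The labels do not say whether the replicate numbers pair the samples. Correlations between libraries cannot settle this, since deviations from a group mean sum to 0 within each group. The correlations of same-numbered deviations from the group means were 0.091, 0.142 and 0.349 for replicates 1, 2 and 3, and not every library correlated best with its own number. With the replicate number as a block, 21 members and 1826 of 14552 genes tested (12.5%) were called, with 5 components, 11 other targets and 10 glycolysis genes. The remaining alternatives stayed within 1.5 times the main counts. They called 14 members with TMM factors, 13 with the count minimum, 11 with no independent filter and 13 with summed stranded columns. Of all genes tested, 4.88%, 5.91%, 2.3% and 4.79% were called in these fits, in the same order, against 4.94% in the main fit. BNIP3 (adjusted p = 0.0668) and BHLHE40 (0.0531) lost their calls without the DESeq2 independent filter, and PLOD2 (0.0489) gained one with TMM factors.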

Other observations

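Among markers of other cell types, the summed endothelial level was 228 to 234 normalized counts with the empty vector and 158 to 183 with overexpression. The endothelial marker KDR, the main receptor of VEGFA, fell by 1.11 on the log2 scale (SE 0.26, DESeq2 adjusted p = 0.00115) and was the only called gene of that list. The summed fibroblast level, mostly COL1A1, was 2897 to 4371 against 4178 to 5266, the keratinocyte level 467 to 926 against 676 to 990, and the leukocyte level 1.07 to 13.3 against 6.75 to 9.08. The part of these levels in the fold changes of the pathway was not tested.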
